A study of Mus musculus with 16 samples.

Results

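CpG-dense stretches that lie far from every annotated gene start were examined in pancreatic β cells, the insulin-secreting cells of the islet, of old and young mice. The genome was cut into adjoining 1 kb windows from the first base of each of the 19 autosomes, and a window was taken when at least 50 of its CpGs had 5 or more bisulfite calls in both the old and the young library and its centre lay more than 5 kb from every transcript start of the deposited transcript table. This gave 1335 windows with 94856 CpGs, against 11188 equally dense windows within 5 kb of a start and 1183488 windows in all with at least 5 such CpGs. Methylation levels and histone marks took no part in the choice.

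Old cells for bisulfite sequencing and for histone marks came from C57Bl6 mice labelled 16 to 18 months, and young cells from C57Bl6 mice of 4 to 6 weeks. For RNA the strain label is MIP-GFP/Bl6, mice whose insulin promoter drives a green fluorescent protein, with old pools of 15, 16 and 17 months and young pools of 4 to 6 weeks. All cells were sorted by flow cytometry, and no treatment is named for either age. Each RNA library was a pool of 5 to 10 mice, the old H3K27me3 sample is described as a pool of 4 to 7 mice, and the young bisulfite sample as a pool of 10. The design text gives 18 to 22 months for the old bisulfite pool, which differs from its label. DNA methylation was held as 1 library per age, H3K27me3 and H3K4me1 as 1 list of enriched regions per age, H3K27ac as 1 young list, and RNA as 3 old and 2 young libraries. The design text names 2 old H3K27me3 replicas, of which 1 list was held, and the input libraries were not analysed here.

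CpG islands are stretches in which CpG dinucleotides have not been lost over evolution, and most mark promoters, where they usually stay unmethylated. A sizeable minority lie inside or between genes. Such orphan islands can serve as alternative or unannotated promoters, as Polycomb targets that carry H3K27me3, or as regulatory elements with H3K4me1 and H3K27ac, and those within gene bodies are the ones most often methylated in differentiated cells.

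The members held 50 to 167 CpGs, with a median of 63. They formed 1158 separate runs of touching windows, of which 1003 were 1 window long, 140 were 2 and 15 were 3 or more. Their median distance to the nearest start was 22.2 kb, with quartiles of 9.87 and 52.3 kb. Of the 1335 windows, 588 (44.0%) lay inside the span of a gene, in 459 gene names, and 747 between genes. Counts per chromosome ran from 28 on chromosome 16 to 110 on chromosomes 2 and 11. The least covered member had 950 calls in the old library, and the least covered one in the young library had 821. The median was 2979 calls per window in the old library and 3424 in the young one. The counting error of a level over a window is therefore small, but each age is 1 library, so no difference between ages has a replicate check.

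Some members do overlie a start that a later annotation knows. Of 31396 autosomal RefSeq promoter sequences of the build GRCm38.p6, each reaching from 250 bases before to 50 bases after a start, 13601 could be placed once on the CpG positions of the bisulfite tables (build mm9) by the spacing of their CpGs. A placed start lay over 198 of the 1335 members (14.8%) and within 5 kb of 293 (21.9%). The sequences of 4 such starts are shown: 3 lie over members whose methylation was called different between the libraries, and Esrrg is the host gene of a member and differed in RNA. Capitals mark the CpGs, and each sequence is given 5′ to 3′ on its own strand.

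Esrrg promoter, plus strand, placed at chr1:189475387-189475686 (mm9): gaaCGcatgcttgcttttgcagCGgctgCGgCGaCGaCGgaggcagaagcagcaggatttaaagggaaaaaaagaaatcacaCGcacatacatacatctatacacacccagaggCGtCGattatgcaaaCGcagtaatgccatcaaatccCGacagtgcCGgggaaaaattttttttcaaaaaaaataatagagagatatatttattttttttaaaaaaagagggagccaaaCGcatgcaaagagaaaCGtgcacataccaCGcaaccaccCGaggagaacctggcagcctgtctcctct

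Gm34820 promoter, plus strand, placed at chr15:37065452-37065751 (mm9): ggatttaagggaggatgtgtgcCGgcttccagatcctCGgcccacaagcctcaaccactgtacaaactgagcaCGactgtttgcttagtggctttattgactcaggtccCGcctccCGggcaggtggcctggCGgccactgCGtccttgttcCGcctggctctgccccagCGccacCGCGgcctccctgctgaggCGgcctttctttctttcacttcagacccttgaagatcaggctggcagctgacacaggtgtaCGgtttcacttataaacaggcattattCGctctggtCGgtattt

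Gm46286 promoter, plus strand, placed at chr11:71864421-71864720 (mm9): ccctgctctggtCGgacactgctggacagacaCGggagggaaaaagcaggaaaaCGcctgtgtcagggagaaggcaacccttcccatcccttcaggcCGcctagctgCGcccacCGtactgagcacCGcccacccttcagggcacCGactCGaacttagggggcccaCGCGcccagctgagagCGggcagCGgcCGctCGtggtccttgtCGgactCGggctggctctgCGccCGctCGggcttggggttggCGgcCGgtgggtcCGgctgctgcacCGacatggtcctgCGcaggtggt

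Gm3636 promoter, minus strand, placed at chr14:7589522-7589821 (mm9): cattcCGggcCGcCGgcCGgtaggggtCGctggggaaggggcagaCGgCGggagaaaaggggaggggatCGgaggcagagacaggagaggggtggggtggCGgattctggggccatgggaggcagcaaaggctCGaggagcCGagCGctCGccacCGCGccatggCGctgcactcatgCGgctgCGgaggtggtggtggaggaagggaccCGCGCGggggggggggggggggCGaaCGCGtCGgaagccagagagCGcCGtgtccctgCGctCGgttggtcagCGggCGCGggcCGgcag

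All 16 CpGs of the Esrrg sequence matched, all 15 of Gm34820, all 25 of Gm46286, and 30 of the 33 of Gm3636. CpGs with 5 or more calls in both libraries numbered 10 for Esrrg, 14 for Gm34820, 25 for Gm46286 and 26 for Gm3636. Esrrg encodes the estrogen-related receptor γ, a nuclear receptor needed for mature β-cell metabolism. The centre of the member over its placed start lies 7.03% along the gene, 42.6 kb from the nearest start in the deposited table. Over the Esrrg sequence, methylation was 1.83% in the old library (95% Wilson interval 0.505 to 6.44%, 109 calls) and 6.98% in the young library (4.04 to 11.8%, 172 calls). Gm46286 lies near the 3′ end of Pitpnm3, which encodes a membrane-associated phosphatidylinositol transfer protein, and its sequence was intermediate, at 57.3% in the old library (53.4 to 61.2%) and 48.9% in the young one (45.9 to 51.9%). The Gm34820 sequence, which overlaps that of Gm41301 on the other strand, stood at 13.8% in the old library (10.7 to 17.7%) and 11.6% in the young one (9.11 to 14.7%). The member over it, chr15:37065001-37066000, was called higher, with 16.0% in the old library and 5.82% in the young one, a wider gap than over the printed sequence. The Gm3636 sequence stood at 1.61% in the old library (0.739 to 3.46%) and 8.79% in the young one (6.36 to 12.0%). Intervals cover counting error only, since several calls can come from the same read.

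Most members were unmethylated in both libraries. The median level, methylated calls over all calls of a window, was 8.07% in the old library and 7.85% in the young one, with quartiles of 4.96 and 18.4% in the old library and 4.68 and 17.2% in the young one. Levels under 20% were found for 1019 members (76.3%) in the old library and 1027 (76.9%) in the young one. Levels over 80% were found for 143 (10.7%) in the old library and 125 (9.36%) in the young one. Dense windows within 5 kb of a start had medians of 5.11% in the old library and 5.06% in the young one, and 97.1% of them in the old library and 97.3% in the young one were under 20%. Over all windows tested the medians were 85.4% in the old library and 84.9% in the young one. The quartiles of the dense windows near starts were closer together than those of the members, at 3.59 and 7.43% in the old library and 3.38 and 7.601% in the young one. The full ranges were alike, from 0.899 to 97.9% in the old library and from 0.574 to 98.4% in the young one for the members, and from 0.333 to 97.0% in the old library and from 0.196 to 97.7% in the young one near starts.

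By the mean of both libraries, 1028 members were low (under 20%), 175 intermediate (20 to 80%) and 132 high (over 80%). Few members changed class. In both libraries 1002 were low, 147 intermediate and 124 high. Intermediate in the old library and low in the young one were 25, and 17 were low in the old library and intermediate in the young one. High in the old library and intermediate in the young one were 19, against 1 that was intermediate in the old library and high in the young one.

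The low and intermediate members were dips in otherwise methylated surroundings. In the low class the median was 6.39% in the old library and 6.15% in the young one within the window. In the windows 1 kb upstream in coordinate it was 24.0% in the old library and 24.9% in the young one, and 1 kb downstream 29.1% in the old library and 31.4% in the young one. At 3 kb it was 79.6% in both libraries, close to the 82.4% (old) and 81.9% (young) seen at 10 kb. The intermediate class dipped to 40.1% in the old library and 35.1% in the young one, and 1 kb away stood at 77.4% in the old library and 73.1% in the young one. High members were level with their neighbours or above them, at 92.4% in the old library and 92.0% in the young one, with 84.3% in the old library and 84.6% in the young one at 10 kb.

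**Figure D1:**
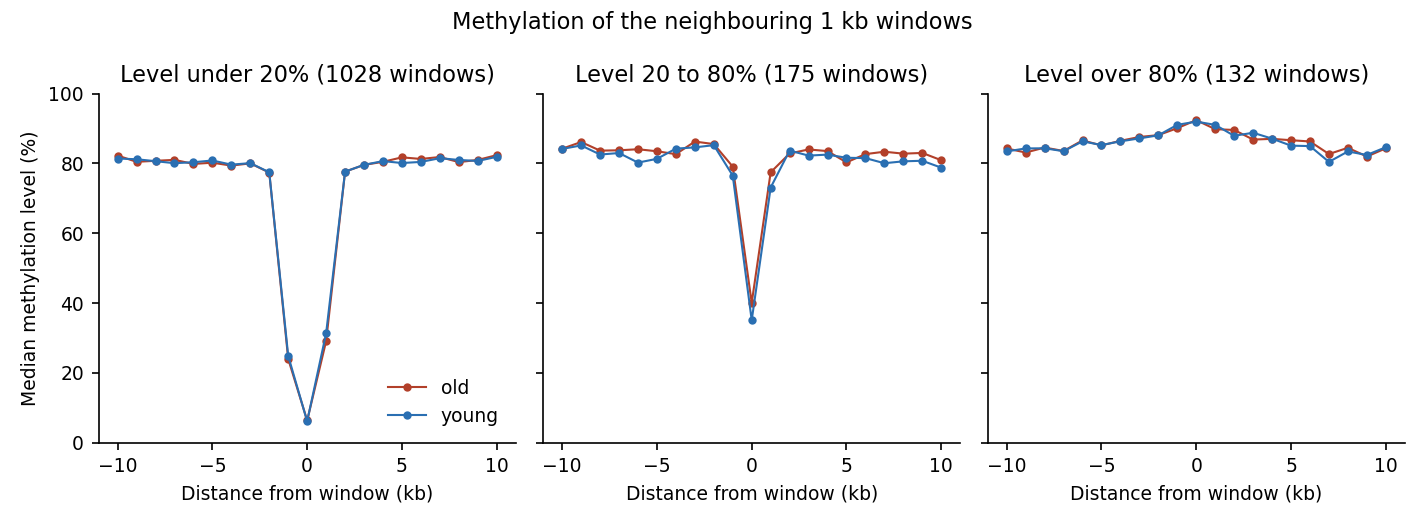
Median methylation level (%) of the 1 kb windows at each distance (kb) from the member windows, for the old (red) and young (blue) library, by level class. Low members sit at 6.39% in the old and 6.15% in the young library, with 29.1% in the old and 31.4% in the young library 1 kb downstream and 79.6% in both at 3 kb, intermediate ones at 40.1% in the old and 35.1% in the young library, and high ones show no dip.

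Where a member lay in a gene went with its level. A gene spanned 359 of the 1028 low members (34.9%), 116 of the 175 intermediate ones (66.3%) and 113 of the 132 high ones (85.6%). Within genes the median position, from the start (0%) to the end (100%), was 68.0% for low, 80.01% for intermediate and 86.5% for high members. The stretch past 80% of the gene held 131 low members (36.5% of those in a gene), 58 intermediate (50%) and 75 high ones (66.4%). Part of this lean to the 3′ end follows from the choice of windows, since none may lie within 5 kb of a start. A placed GRCm38.p6 start lay over 192 low members (18.7%), 6 intermediate (3.43%) and 0 high ones.

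**Figure D2:**
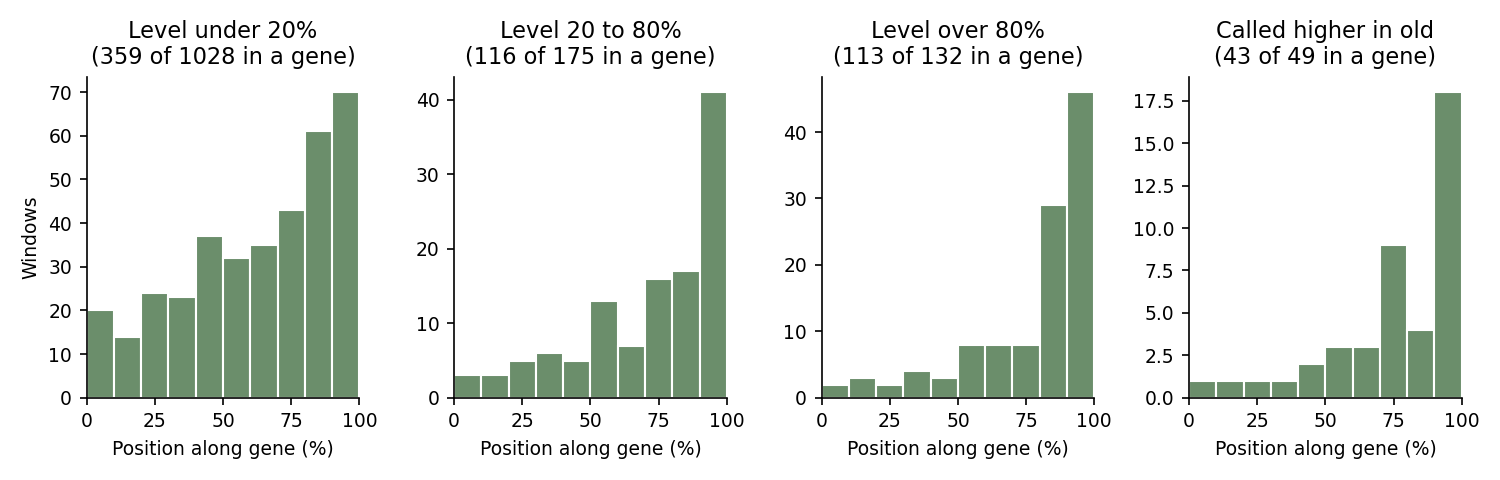
Number of member windows by position along the gene that spans them (%, 0 at the start and 100 at the end), for low, intermediate and high members and for members called higher in the old library. Low members spread over the gene with a median of 68.0%. Past 80% lie 75 of 113 high members, 58 of 116 intermediate ones (50%) and 22 of 43 called ones (51.2%).

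Whether the old library differed from the young one was tested per window with a two-sided Fisher exact test on its methylated and unmethylated calls, adjusted by Benjamini-Hochberg over all 1183488 windows. A window was called when the adjusted p was under 0.05 and the level differed by at least 10 percentage points. The test compares these 2 libraries and not the ages, and its p-values are too small where reads carry several calls. Of the 1335 members, 49 (3.67%) were called higher and 12 (0.899%) lower in the old library. Over all windows 8.63% were called higher and 8.64% lower, so the share of members called lay below that background in both directions, with no test of that difference. Windows of that background need only 5 CpGs. Their median calls per CpG were 21.2 in the old library and 19.1 in the young one, against 46.5 (old) and 53.7 (young) for members. Shares called, here and by level below, therefore rest on unlike numbers of calls. Dense windows near starts were called higher in 86 cases (0.769%) and lower in 85 (0.760%). The median difference of the members was 0.633 points, with quartiles of -1.43 and 2.63 points.

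Most gains were intermediate members. Of the 175 intermediate members 43 (24.6%) were called higher in the old library, beside 13.6% of all intermediate windows, and 3 (1.71%) lower, beside 13.2% of all intermediate windows. The median difference of intermediate members was 3.98 points, and 132 of them (75.4%) had the higher level in the old library. The 270 intermediate dense windows near starts leaned the same way, with 61 (22.6%) called higher and 8 (2.96%) lower in the old library and a median of 4.95 points, so this lean is shared with dense windows near starts. Among low members 4 (0.389%) were called higher and 9 (0.875%) lower in the old library, beside 2.59% and 6.42% of all low windows. Among high members 2 (1.52%) were called higher and 0 lower, beside 6.56% and 6.61% of all high windows.

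**Figure D3:**
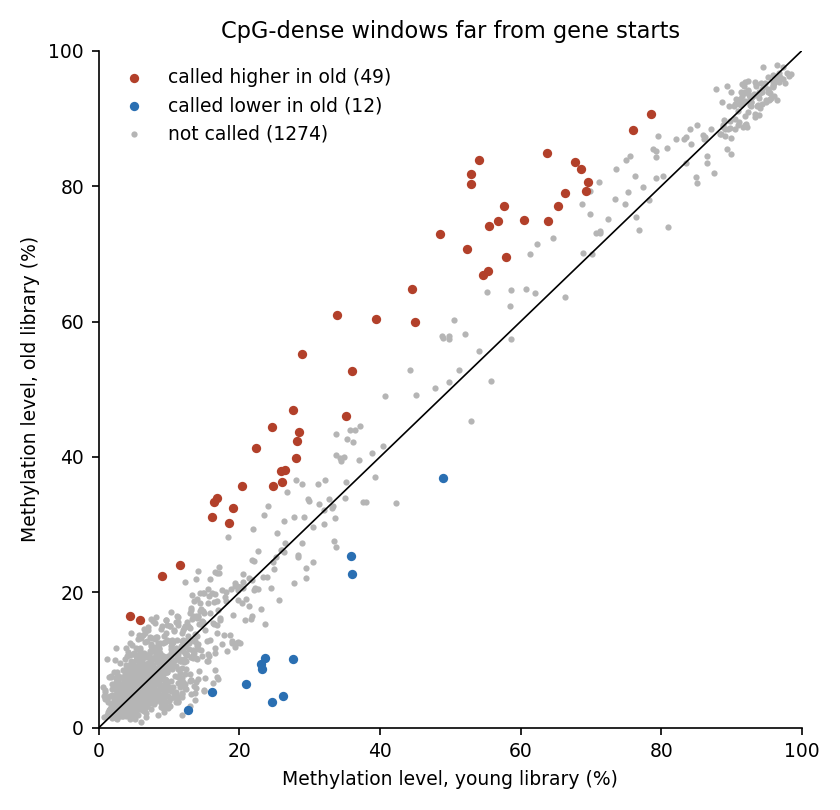
Methylation level (%) of each of the 1335 member windows in the old library (vertical) against the young library (horizontal), with windows called higher in the old library in red, called lower in blue and not called in grey; the line marks equal levels. The 49 windows called higher lie mostly between 20 and 80%, and 9 of the 12 called lower are low.

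The 49 gains lay in 47 runs and measured 10.0 to 29.7 points, with a median of 14.5. Between 61.5 and 94.7% of the CpGs of each such window moved the same way. A gene spanned 43 of the 49, and 22 of these windows (51.2%) lay past 80% of its length. This share was 50% for the intermediate members in a gene and 44.9% for all members in a gene. The 10 with the largest difference are described first.

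Foxo6, a forkhead transcription factor of the brain, held both of the largest, which touch each other near its 3′ end. At chr4:119941001-119942000 the level was 83.8% in the old library (82.4 to 85.1%, 2861 calls) and 54.2% in the young library (52.8 to 55.5%, 5140 calls), with 90 of 95 CpGs higher in the old library (Fisher adjusted p = 6.42e-162). At chr4:119940001-119941000 it was 81.8% in the old library and 53.0% in the young one. Spnb4, which encodes βIV-spectrin of the axon initial segment, followed with 80.3% in the old library and 53.0% in the young one at chr7:28149001-28150000. All of these lie past 90% of the way along their gene.

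Cacna1a encodes the pore subunit of the P/Q-type calcium channel, which takes part in insulin release. Its window at chr8:87083001-87084000 held 111 CpGs and stood at 61.0% in the old library and 33.8% in the young one. Zfp316, a zinc finger gene, had 154 CpGs at chr5:144015001-144016000 and stood at 55.3% in the old library and 29.0% in the young one. The Agap3 window, in a gene for an Arf GTPase-activating protein, stood at 72.9% in the old library and 48.5% in the young one at chr5:23980001-23981000. These 3 windows lie within their genes, at 64.1, 79.7 and 45.1% of the length.

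Junctophilin 3 (Jph3), which ties the plasma membrane to the endoplasmic reticulum, stood at 84.9% in the old library and 63.8% in the young one at chr8:124277001-124278000. Hapln4, a link protein of the extracellular matrix, stood at 60.4% in the old library and 39.4% in the young one at chr8:72612001-72613000. Sh3pxd2a, which encodes the podosome scaffold Tks5, stood at 44.4% in the old library and 24.6% in the young one at chr19:47418001-47419000. The 10 windows had 27.4 to 45.4 calls per CpG in the old library, so none was thinly covered.

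Inpp5f, an inositol phosphatase gene with an imprinted transcript variant that starts inside it, is the only imprinted gene of the list used here with a call. Its window at chr7:135831001-135832000 stood at 64.8% in the old library (62.5 to 67.1%, 1673 calls) and 44.6% in the young library (42.4 to 46.9%, 1927 calls), and 45 of 61 CpGs were higher in the old library. It overlapped a young H3K27ac region. In all, 5 of the 49 gains did, beside 7 of the 175 intermediate members (4%) and 21.2% of all members. At imprinted control regions a level near the middle is known from the parental alleles differing, and reads were not split by allele here.

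**Figure D4:**
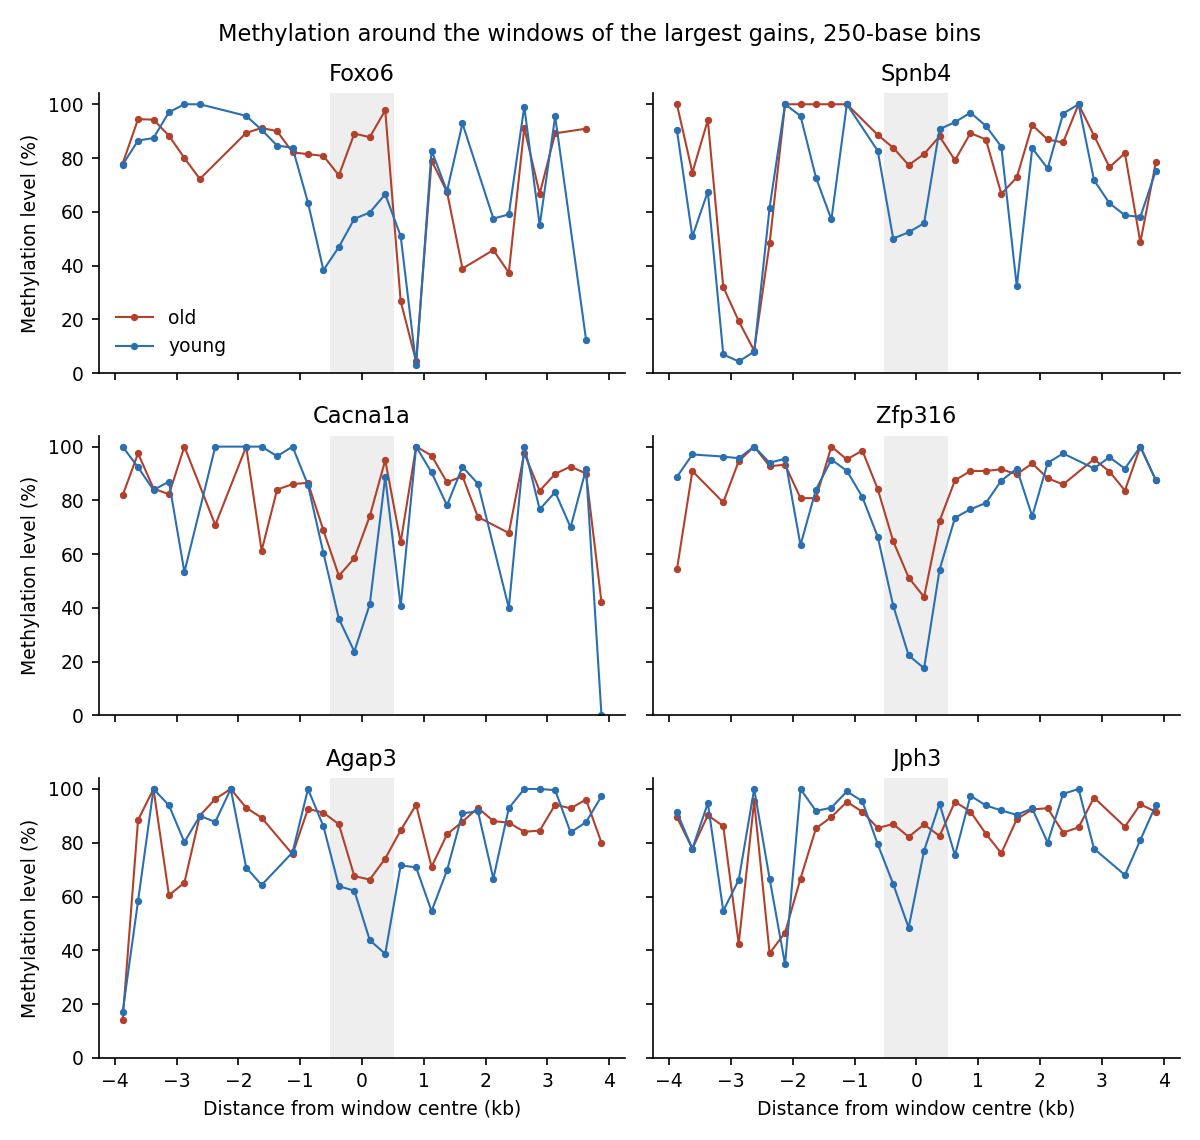
Methylation level (%) in 250-base bins within 4 kb of the centre of the 6 genes' windows of largest gain, for the old (red) and young (blue) library; the grey band is the 1 kb window. Within the Foxo6 window the 4 bins run from 73.5 to 97.7% in the old and from 46.9 to 66.5% in the young library, and the lines cross repeatedly outside it.

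The surroundings of these windows were mostly methylated. More than 2 kb from the centre the median bin stood at 84.1% in the old library and 87.0% in the young one at Foxo6, and at 90.8% in the old library and 95.6% in the young one at Zfp316. Within the Zfp316 window the 4 bins ran from 44.1 to 72.3% in the old library and from 17.5 to 54.2% in the young one. At Spnb4 the surroundings were lower and differed too, with a median of 80.1% in the old library and 65.4% in the young one. They included a bin of 26 CpGs at 19.4% in the old library and 4.36% in the young one. The difference reached past the window at Foxo6 and Zfp316. The Foxo6 bin at -625 bases from the centre, which lies in the touching member, had 41 CpGs at 80.8% in the old library and 38.3% in the young one. At Zfp316 the bins at -625, 625, 875 and 1125 bases, with 19 to 28 CpGs each, stood between 84.2 and 91.0% in the old library and between 66.4 and 79.03% in the young one.

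The 12 losses were low or intermediate windows, and a gene spanned 3 of them. The largest was at chr4:128726001-128727000, 9.01 kb from the start of Rnf19b, a ubiquitin ligase gene, with 4.65% in the old library (3.63 to 5.94%) and 26.2% in the young library (23.5 to 29.0%). The member over the placed Gm3636 start, chr14:7589001-7590000, stood at 3.801% in the old library and 24.7% in the young one. Numbered Gm genes of this stretch of chromosome 14 can have near-identical copies, so the placing of reads there, and at chr14:4518001-4519000 near Gm3264 with 5.31% in the old library and 16.1% in the young one, is uncertain.

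Windows beside developmental regulators were among the losses. Foxd3, a forkhead factor of the neural crest, had a window at chr4:99317001-99318000 with 10.2% in the old library and 27.6% in the young one. Hand2, a factor of heart and limb formation, had one at chr8:59807001-59808000 with 6.47% in the old library and 20.9% in the young one. Both overlapped H3K27me3 in both ages. Rnf220, a ubiquitin ligase gene, had a window 5.33% along it at chr4:117157001-117158000 with 8.67% in the old library and 23.2% in the young one. The other 5 of the largest losses, at Pth1r and near AI836003, Mir129-1, Hs3st2 and, as given, Gm3264, differed by -13.7 to -10.7 points. The Hs3st2 window rests on the way of averaging, since the mean of its CpG levels was 52.0% in the old library and 55.4% in the young one, less than 10 points apart.

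Depth and the levels at marker gene starts differed between the libraries. Calls per CpG had a median of 46.5 in the old library and 53.7 in the young one over the members, and 386 of the 1335 members were deeper in the old library. This held for 21 of the 49 gains and 8 of the 12 losses. The Ins1 start, known to be unmethylated in β cells, was at 8.05% in the old library (174 calls) and 55.9% in the young one (68 calls), within 500 bases. The Ins2 start was at 23.5% in the old library (153 calls) and 26.2% in the young one (210 calls). Starts of other cell types' genes went both ways. The acinar gene Ctrb1 stood at 93.6% in the old library (85.9 to 97.2%) and 81.2% in the young one (70.4 to 88.6%), over 3 CpGs, and the acinar genes Cpa1 and Cela1 were also higher in the old library, with overlapping intervals. The start of Gcg, the glucagon gene of α cells, stood at 56.1% in the old library (49.8 to 62.3%) and 71.3% in the young one (64.4 to 77.3%), and those of Cdh5 of endothelium and Ptprc of leukocytes were lower in the old library, with overlapping intervals. How far other cell types in the sorted pools take part in the differences was not tested. Over the autosomes the mean of CpG levels was 75.7% in the old library and 75.9% in the young one, while the level pooled over calls, the measure used for the windows, was 72.6% in the old library and 75.6% in the young one. Mitochondrial CpGs, taken as largely unmethylated, were at 4.51% in the old library and 6.33% in the young one. The low members lie close to those values, and what part of their level is unconverted cytosine was not tested.

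Histone marks divided the members. H3K27me3, set by Polycomb repressive complex 2, overlapped 792 members (59.3%) in the old list and 588 (44.0%) in the young list. Near-start dense windows overlapped it in 39.8% of cases in the old list and 26.8% in the young list, and all windows in 36.4% in the old list and 24.2% in the young list. H3K27ac, a mark of active promoters and enhancers held for young cells alone, overlapped 283 members (21.2%). It overlapped 54.1% of dense windows near starts and 2.75% of all windows, so the members lay between the 2. H3K4me1, found at enhancers and around promoters, overlapped 340 members (25.5%) in the old list and 600 (44.9%) in the young list. Near-start dense windows overlapped it in 26.9% of cases in the old list and 45.6% in the young list. Of all windows, 2.64% overlapped it in the old list and 5.07% in the young list. Marks were held as 1 list per mark and age with no replicate, so these shares are descriptions with no test.

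**Figure D5:**
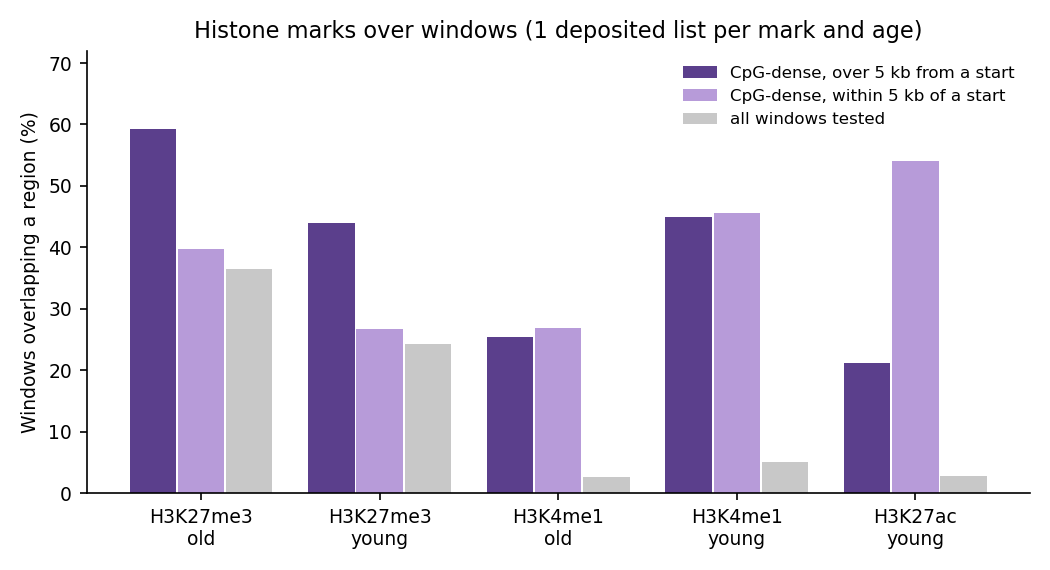
Share of windows (%) that overlap a deposited region of each mark by at least 1 base, for CpG-dense windows over 5 kb from a start, for those within 5 kb and for all windows tested. The windows far from a start overlap H3K27me3 in 59.3% of cases in the old and 44.0% in the young list, against 39.8% and 26.8% for those near a start, and H3K27ac in 21.2%, against 54.1%. Of all windows tested, 36.4% overlap H3K27me3 in the old and 24.2% in the young list, and 2.75% overlap H3K27ac.

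The lists of the 2 ages differ in length. The old H3K27me3 list covers 590 Mb of the autosomes and the young one 434 Mb, and the old H3K4me1 list has 36011 peaks, against 76313 in the young one. A larger share of members in the longer list is therefore no change by itself. Both H3K27me3 lists covered 537 members, the old list alone 255, the young list alone 51, and neither 492. Of the 132 high members, 75 (56.8%) overlapped the old H3K27me3 list and 9 (6.82%) the young one, while of all high windows 31.4% overlapped the old list and 18.7% the young one. Of the 40 high dense windows near starts, 22 (55%) overlapped the old list and 2 (5%) the young one. The contrast between the lists is therefore shared with dense windows near starts. Of the 1028 low members, 600 (58.4%) overlapped the old list and 504 (49.03%) the young one.

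Combining the young lists, 583 members had H3K27me3 without H3K27ac, 278 had H3K27ac without H3K27me3, and only 5 had both. A further 153 had H3K4me1 alone, and 316 had none of the 3 marks. The members with H3K27ac and no H3K27me3, of which 33.5% also overlapped young H3K4me1, had a median level of 4.90% in the old library and 4.98% in the young one. Those with H3K27me3 and no H3K27ac stood at 8.67% in the old library and 8.10% in the young one. The 316 unmarked members had medians of 64.0% in the old library and 52.7% in the young one, but the median of their differences window by window was 1.12 points. They made up 23.7% of the members and held 35 of the 49 gains. Of the 316, 122 were high. Of intermediate members, the level of most gains, 4% overlapped young H3K27ac and 15.4% young H3K4me1. Whether a lack of marks goes with gains apart from level was not tested. H3K27me3 of the old list overlapped 27 of the 49 gains, beside 117 of the 175 intermediate members (66.9%). H3K27me3 of the young list overlapped 9 gains, beside 75 intermediate members (42.9%). For 19 of the 49 gains the overlap was in the old list alone, the longer one, beside 255 of the 1335 members of every level (19.1%). The like count for intermediate members was not taken, so how far this follows their level was not tested.

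Developmental transcription factors were the longest gene list examined. The nearest or spanning gene of 93 members was one of 66 such factors, out of 206 in the list, beside 8 of the 23 genes in the list of cadherins. Of these 93 members, 90 (96.8%) overlapped H3K27me3 in the old list and 88 (94.6%) in the young list, and 1 overlapped H3K27ac. Their median level was 9.57% in the old library and 8.56% in the young one, with 2 called higher and 2 lower in the old library. The 9 Hox windows, at 8 genes of body-axis patterning, lay between 6.19 and 15.7% in the old library and between 3.82 and 13.6% in the young one, with H3K27me3 in both lists and no call. The 8 Pax windows lay between 4.39 and 10.7% in the old library and between 3.18 and 15.7% in the young one, again with H3K27me3 in both lists and no call.

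Not every window of this group was low, since 9 were intermediate and 6 high. Barhl1, a homeobox factor of neurons, was called higher, with 33.3% in the old library and 16.4% in the young one at chr2:28765001-28766000. Lmx1b, a LIM homeobox factor of limb and brain, was called higher too, with 74.99% in the old library and 60.5% in the young one at chr2:33487001-33488000. Both calls, with the losses near Foxd3 and Hand2, complete the 4 of the group. Zfhx3, a large homeobox and zinc finger factor, held 4 high windows, between 89.8 and 97.6% in the old library and between 88.9 and 97.6% in the young one, with H3K27me3 in the old list alone. A window 10.0 kb from its start with 133 CpGs stood at 2.82% in the old library and 5.61% in the young one.

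β-cell genes held 6 members, none called. The Nkx6-1 window, at the 3′ end of this β-cell identity factor, stood at 7.52% in the old library (2035 calls) and 4.55% in the young one (1670 calls) and overlapped young H3K27ac. Mnx1, a factor of β-cell differentiation, had a window 10.5 kb from its start with 9.09% in the old library and 9.53% in the young one. St18, a zinc finger factor, had one at 10.6% in the old library and 8.39% in the young one, and the Esrrg window stood at 9.48% in the old library and 6.66% in the young one with H3K4me1 in both lists. The direction at Esrrg rests on the way of averaging, since the mean of its CpG levels was 9.02% in the old library and 11.7% in the young one. The windows near Mafa, at 15.4% in the old library and 23.7% in the young one, and near Foxa2, at 12.5% in the old library and 19.02% in the young one, differed by less than 10 points. Nkx6-1 is also the one β-cell marker with a member, and Ptf1a, with 2 windows in H3K27me3, the one acinar marker.

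The 3 members at imprinted genes were Inpp5f, as above, Zdbf2 with 31.4% in the old library and 23.5% in the young one, and Cdkn1c, a growth-restraining inhibitor, with 11.01% in the old library and 12.3% in the young one. Only Inpp5f was called. Cadherin genes held 15 members of 8 genes with 1 call. That was Celsr3, an atypical cadherin of planar polarity, with 66.8% in the old library and 54.6% in the young one. Growth genes held 6 members and Polycomb, Trithorax and DNA methylation genes 8, with no call in either group. The Tet1 window, 6.74 kb from the start of this 5-methylcytosine oxidase gene, stood at 6.78% in the old library and 6.34% in the young one.

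Of the 6 members with 154 or more CpGs, 5 were low in both libraries, and the Zfp316 window given above was intermediate. A window 22.3 kb from the start of Whsc1, chr5:34163001-34164000, held 167 CpGs at 2.61% in the old library and 1.64% in the young one. Windows near Mir30d and Mirlet7c-2, microRNA genes, held 161 and 155 CpGs. They stood at 3.44% in the old library and 2.59% in the young one near Mir30d, and at 3.03% in the old library and 2.06% in the young one near Mirlet7c-2. All 3 overlapped young H3K27ac and no H3K27me3. In Unc45b, a myosin chaperone gene of muscle, 4 touching windows with 58 to 155 CpGs stood between 9.81 and 15.9% in the old library and between 9.20 and 17.3% in the young one, with H3K27me3 in both lists. The other runs of 4 windows, near Lphn2, Dhx15 and 2810429I04Rik, stood between 3.25 and 10.2% in the old library and between 3.00 and 9.23% in the young one, also with H3K27me3 in both lists and no call. The 5 members under the young H3K27ac regions of highest score, near Fosb, Foxj2, Srek1, Ezr and R3hdm2, stood between 2.39 and 8.03% in the old library and between 2.40 and 6.44% in the young one, with no call.

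The longest run, 6 windows from chr17:39980001 on, stood apart by depth. Its windows had 2851 to 4865 calls per CpG in the old library and 2894 to 5838 in the young one. Levels there were 17.4 to 21.8% in the old library and 17.0 to 22.7% in the young one. These calls may come from more than 1 copy in the genome, which was not tested, and none of the 6 windows was called.

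Levels near the middle in both libraries were also found. The 5 such members with most CpGs, between 40 and 60% in each library, included a window in Dos, also known as Cbarp, a regulator of calcium channels, with 52.9% in the old library and 51.3% in the young one. A window 48.99 kb from the start of Aasdhppt stood at 50.2% in the old library and 47.9% in the young one. One in Gm19689 stood at 41.7% in the old library and 40.4% in the young one. None of the 5 was called.

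Values just inside and outside the thresholds of the choice are given with no test. Of members with exactly 50 CpGs, the one in Zfr2 stood at 64.4% in the old library and 55.3% in the young one. A window in Accn4 with 49 CpGs, left out by that count, stood at 10.0% in the old library and 9.53% in the young one. The member 5.01 kb from the Foxc1 start stood at 5.47% in the old library and 7.19% in the young one. A window 4.99 kb from the same start, left out by the distance, stood at 46.5% in the old library and 39.3% in the young one.

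RNA of the genes that span a member was lower in the old libraries more often than higher. Of 459 such genes, 378 passed the filter on low counts, and edgeR's quasi-likelihood test with Benjamini-Hochberg adjustment over all 15544 genes tested called 6 higher (1.59%) and 46 lower (12.2%) in old cells. Over all genes tested 3.17% were called higher and 7.93% lower. The median log2 fold change (old over young) of the 378 was -0.56, and that of all genes tested -0.05. With RLE (relative log expression) size factors in place of TMM in edgeR these medians were -0.69 and -0.17, so both shift together. Depth was 23559908 to 33562822 counts in the old libraries and 6377619 and 12892123 in the young ones, called the shallower and the deeper below. In such pools fewer cells of a type and less RNA per cell cannot be told apart.

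Esrrg had 27.1, 28.3 and 27.2 CPM (counts scaled to the library size) in the old libraries, against 5.42 and 7.87 CPM in the young ones. The groups did not overlap, and the log2 fold change was 2.03 ± 0.44 (SE; edgeR adjusted p = 0.0287). Dlgap1, a scaffold of the postsynaptic density, had 84.3, 61.7 and 89.6 CPM in the old libraries, against 24.8 and 34.2 CPM in the young ones. It rose by a log2 fold change of 1.40 ± 0.32 (SE; edgeR adjusted p = 0.0334). Ece1, which encodes an endothelin-converting protease, rose to 1888 ± 152 CPM in old libraries (SD, n = 3), against 1068 ± 6.59 CPM in young ones (SD, n = 2), with an edgeR adjusted p of 0.0471. It was no longer called by edgeR with RLE size factors, while DESeq2 itself still called it. Zc3h7a, a zinc finger gene named after its values were seen, was also called higher, with 113, 139 and 129 CPM in the old libraries, against 56.0 and 72.9 CPM in the young ones. Of the other host genes of highest level, Srrm2, a splicing factor gene, had 1184, 1331 and 1922 CPM in the old libraries, against 2247 and 2766 CPM in the young ones, and did not pass (edgeR adjusted p = 0.0957). Hdlbp, Macf1 and Dync1h1 did not pass either, with edgeR adjusted p of 0.852, 0.561 and 0.962.

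The host genes called lower with the smallest adjusted p were Tns1, Ildr2, Tnc and Basp1. Tns1, a focal adhesion protein gene, had 11.1, 11.3 and 3.24 CPM in the old libraries, against 261 and 329 CPM in the young ones (log2 fold change -5.12 ± 0.52 SE, edgeR adjusted p = 0.00387). Tnc, a matrix glycoprotein gene, had 0.0377, 0.0910 and 0 CPM in the old libraries, against 45.4 and 13.2 CPM in the young ones. Markers of other cell types moved with this. The largest sums were those of the 9 markers of islet α, δ and PP cells, at 1110 to 2213 CPM in old libraries. In young libraries these markers summed to 5032 and 41026 CPM. Of the 9, 6 were called lower, as were 4 of 7 duct markers and 3 of 8 macrophage and lymphocyte markers. The 8 stellate and fibroblast markers summed to 6.10 to 9.72 CPM in old libraries and to 323 and 3628 CPM in young ones, and 8 of 8 were called lower. The 8 endothelial markers summed to 39.9 to 66.1 CPM in old libraries and to 382 and 934 CPM in young ones, and the 14 acinar markers to 203 to 230 CPM in old libraries and to 1713 and 2275 CPM in young ones. The part of these cells in the 46 lower calls was not tested. The 10 β-cell markers summed to 332264 to 437548 CPM in old libraries and to 311373 and 256536 CPM in young ones. Of these 10, 3 were called higher and 0 lower.

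Few genes that span a gain of methylation were called in RNA. Of 42 such genes, 40 were tested, and 1 (2.5%) was called higher and 2 (5%) lower, beside 3.17% and 7.93% of all genes tested. Their median log2 fold change was 0.01, beside -0.56 over all host genes and -0.05 over all genes tested, with no test of that difference. Pitpnm3 was the one called higher, with 133, 126 and 140 CPM in the old libraries, against 61.3 and 54.5 CPM in the young ones (log2 fold change 1.19 ± 0.24 SE, edgeR adjusted p = 0.0234), while its window at chr11:71864001-71865000 stood at 69.6% in the old library and 58.0% in the young one. Lmtk3, a kinase gene, was called lower, with 10.5, 16.8 and 29.2 CPM in the old libraries, against 70.4 and 85.4 CPM in the young ones. Gpr124, an adhesion receptor gene of endothelium, was the other called lower, with 0.377, 0.607 and 1.43 CPM in the old libraries, against 2.93 and 47.6 CPM in the young ones. Both are named after their values were seen.

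The genes of the largest gains did not pass the test in RNA. Foxo6 had 7.23, 6.52 and 12.4 CPM in the old libraries, against 1.17 and 4.62 CPM in the young ones (log2 fold change 1.56 ± 0.87 SE, edgeR adjusted p = 0.273). Cacna1a had 126, 89.7 and 162 CPM in the old libraries, against 242 and 168 CPM in the young ones (log2 fold change -0.72 ± 0.31 SE, edgeR adjusted p = 0.163). Inpp5f had 65.8, 75.4 and 71.6 CPM in the old libraries, between the 38.9 and 95.6 CPM of the young ones.

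Fewer libraries change the RNA calls. Without 1 old library at a time, 0 host genes were called higher and 7 to 15 lower by edgeR, with 12 to 15 higher and 81 to 97 lower at an unadjusted p under 0.05 while Esrrg, Dlgap1, Ece1 and Pitpnm3 were no longer called, and Tns1, Ildr2, Tnc and Basp1 still were. Without the shallower young library the counts were 16 higher and 83 lower, and without the deeper one 44 and 84, the lone young library then being assumed to vary like the old ones. DESeq2 called 15 higher and 112 lower.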

How the data were processed

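Bisulfite calls, regions of histone marks and RNA of sorted mouse β cells were used. The deposited CpG tables hold per CpG the methylated fraction and the count of calls; their product lay within 1.86e-08 of a whole number and gave methylated calls. The tables' name points to BS-Seeker, with settings and any conversion correction not given in the sources used here. Per the file headers, HOMER findPeaks made the H3K4me1 and H3K27ac lists, each from a single library and its input; for H3K27me3 the caller is unnamed in the sources used here. The deposited score of a region served to rank regions within a list. RNA counts per transcript are the authors' raw read counts, and the transcript with the highest total stood for a gene. The deposited transcript signal table, named FPKM, gave positions only, since the columns of the third old and the shallower young library are equal in 100% of rows. The build is mm9, and the tools listed are Bowtie 0.12.7, STAR, CASAVA 1.8.2, edgeR and HOMER, per the submitters' processing notes. No source used here says if counting used strand, so overlapping and antisense genes may share reads.

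Calls were summed over the CpGs of a window with at least 5 calls in both libraries. Fisher tests (scipy 1.17.1, numba 0.67.0, Python 3.11.15) and Benjamini-Hochberg adjustment ran over 1183488 windows; the old library listed 19569012 CpGs at a median of 18 calls on the autosomes and the young one 18795223 at 16. A window's host is the gene whose span covers its centre, otherwise the gene of the nearest start is named. RefSeq promoter sequences of GRCm38.p6 with at least 10 CpGs were placed where at least 90% of their CpG spacings matched the listed CpGs of the chromosome of the same name; 179 of 13800 were placed nowhere and 20 more than once, and 97.2% of the 10461 with a symbol in the transcript table lay within 5 kb of a start of that symbol. Sequences were at hand for 18 of the 19 autosomes; no genome of the build was used here, so windows themselves have no sequence. RNA was compared with edgeR 4.0.16 (R 4.3.3; quasi-likelihood, TMM, filterByExpr, two-sided, threshold 0.05), with DESeq2 1.42.0 as an alternative. The fits were tested on simulated data. Where nothing says that libraries came from separate mice beyond the pools named, p-values measure the spread between these libraries.

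Named windows are the 10 largest gains and losses among those called, the 5 with most CpGs, the 5 longest runs, up to 4 per gene list by CpG number, the 5 between 40 and 60% in both libraries with most CpGs, the 5 under the H3K27ac regions of highest score and 3 on each side of a threshold; named host genes are the 5 of highest CPM and up to 4 per direction of smallest adjusted p. Members, lists and this rule were chosen with earlier results of these data known. Windows of the lists beyond the 4, Barhl1, Lmx1b, Mafa, Foxa2, the Zfhx3 windows inside the gene and those over placed starts were named after their values were seen. Some items that the rule names are not reported here. Of 28644 transcripts 0 had no gene name, and 0 columns belonged to other samples.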

Additional observations from a re-analysis of the deposited data

How the results depend on the processing

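The 10 largest gains and 10 largest losses kept their call with CpGs of 3 or 10 calls and with 1 in 5 CpGs alone, 60 of 60 values; as a mean of CpG levels the Hs3st2 loss, 52.0% (old) against 55.4% (young), was under 10 points, and the other 19 were not. Against 49 windows called higher and 12 lower in the old library, 40 CpGs gave 101 and 45, 60 CpGs 28 and 6, a distance of 2 kb 77 and 22, and 20 points 9 and 2; 10 kb gave 27 higher, and 1 in 5 CpGs 19 lower. The median difference, 0.633 points, was 0.385 without windows over 3 times the median depth and 0.351 as a mean of CpG levels, positive in each. That depth border uses the median of all windows tested, so leaving out deep windows removes 597 of the 1335 members.

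Shares under 20% (76.3% in the old library, 76.9% in the young one) were 60.6% (old) and 60.6% (young) with 40 CpGs, 83.6% and 83.9% with 60, 78.7% and 79.4% beyond 10 kb, 61.8% and 62.5% without deep windows, 71.1% and 71.6% without members near a placed start (an alternative chosen after seeing the data), and 58.2% and 60.1% with borders of 10 and 90%; the young share was 73.9% as a mean of CpG levels. Shares over 80% (10.7% old, 9.36% young) were 22.1% (old) and 20.6% (young) with 40 CpGs, 5.22% and 3.95% with 60, 8.73% and 7.61% beyond 2 kb, 19.2% and 16.9% without deep windows, 13.5% and 11.8% without members near a placed start, and 6.44% and 6.59% with borders of 10 and 90%; the young share was 7.83% with 10 calls.

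The share with H3K27me3 of the old list (59.3%) was 65.3% at 2 kb, 55.6% at 10 kb, 63.0% within 2 kb of the window, 51.7% with regions above each list's median score and 62.9% without members near a placed start. With the young list (44.0%) it was 50.7% at 2 kb, 47.4% with shifted windows, 39.3% without deep windows and 47.3% within 2 kb. H3K4me1 (25.5% old, 44.9% young) was at 21.3% (old) and 38.7% (young) with 40 CpGs, 21.8% and 39.7% without deep windows, 43.1% and 62.6% within 2 kb, 17.2% and 32.8% above the median score, and 0 in both ages when 500 bases must overlap, since its peaks have medians of 120 (old) and 126 (young) bases. H3K27ac (21.2%) was at 15.4% with 40 and 24.6% with 60 CpGs, 17.5% with 500 bases of overlap, 13.1% above the median score and 16.6% without members near a placed start.

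Host genes called in RNA, 6 higher and 46 lower in old libraries, were 0 higher and 7 to 15 lower without an old library, 16 to 44 higher and 83 to 84 lower without a young one, 15 and 112 by DESeq2, and 17 and 80 with nearest genes added; 10 were called higher with no filter. The 13 named genes called lost 8, 8 and 9 calls without old replicates 1, 2 and 3. The cause of the moves given here was not tested. No paired analysis was possible because the young RNA columns carry no replicate number and the bisulfite and mark groups have 1 sample each.

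With 1 library per age, no methylation or mark difference here can be ascribed to age, and what part depth has in the differences was not tested beyond leaving out deep windows.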
